A study of Mus musculus with 6 samples.

Results

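A set of 5 genes of cardiac excitation, Scn4b, Scn4a, Scn10a, Hcn2 and Hcn4, were followed in the left ventricle of male mice that lack MURC and of wild-type mice. The members were taken by gene symbol, as the probe sets that the platform annotation assigns to 1 of these symbols alone. This gave 4 probe sets, 1 each for Scn4b, Scn10a, Hcn2 and Hcn4, out of 35556 on the array. No probe set carried the symbol Scn4a, the sodium channel of skeletal muscle, so Scn4a was not analysed here. Total RNA came from 3 MURC knockout samples, labelled as 11, 11 and 13 weeks old for replicates 1 to 3, and from 3 wild-type samples, labelled as 13, 13 and 12 weeks old. All 6 samples were from male mice on a C57BL/6 background, measured on Affymetrix arrays. MURC, also called cavin-4, coats caveolae, flask-shaped pits of the muscle cell membrane. The labels do not say whether the gene was deleted in the whole body or in muscle.

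Voltage-gated sodium channels open when a heart muscle cell is depolarised and carry the inward current of the action potential upstroke, and so set how fast excitation spreads. The pore is an alpha subunit, and beta subunits are single-pass membrane proteins that adjust gating and place the channel in the membrane. HCN channels open on hyperpolarisation, are modulated by cyclic AMP and carry the pacemaker current. Hcn4 is the main isoform of the sinoatrial node, and Hcn2 is expressed more broadly in heart and brain. Scn10a is best known from sensory neurons, and variants near it have been linked to conduction in the human heart. In these bulk samples, fewer cells of a type and less RNA per cell cannot be told apart.

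The promoters of Scn4b, Hcn2 and Hcn4 are shown because these are the genes whose probe sets lay above the median of every array. They are the 250 bases before the annotated start, 5′ to 3′, from RefSeq on GRCm38.p6, and lie at chr9:45138374-45138623 on the plus strand, chr10:79716384-79716633 on the plus strand and chr9:58822699-58822948 on the plus strand. Capitals mark matches, on either strand, to the GC box GGGCGG, the CCAAT box, TATAAA, the GATA letters AGATAA and the T-box core AGGTGT.
Scn4b: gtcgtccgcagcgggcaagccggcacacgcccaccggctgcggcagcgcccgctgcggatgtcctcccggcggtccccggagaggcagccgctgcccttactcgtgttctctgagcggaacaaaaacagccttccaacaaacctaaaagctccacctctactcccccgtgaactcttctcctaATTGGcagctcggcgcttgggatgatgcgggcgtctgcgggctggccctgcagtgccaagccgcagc
Hcn2: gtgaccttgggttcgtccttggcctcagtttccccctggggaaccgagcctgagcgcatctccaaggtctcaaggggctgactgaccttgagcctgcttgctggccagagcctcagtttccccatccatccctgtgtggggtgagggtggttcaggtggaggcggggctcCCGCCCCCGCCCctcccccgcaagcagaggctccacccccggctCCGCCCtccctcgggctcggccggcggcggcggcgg
Hcn4: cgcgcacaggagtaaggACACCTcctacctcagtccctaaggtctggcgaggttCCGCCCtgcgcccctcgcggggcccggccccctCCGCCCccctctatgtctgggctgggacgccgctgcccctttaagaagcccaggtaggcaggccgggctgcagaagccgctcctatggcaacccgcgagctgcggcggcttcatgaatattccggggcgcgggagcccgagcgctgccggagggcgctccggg
All 3 are rich in G and C. Hcn4 had 71.2% G and C and 25 CpG dinucleotides, Hcn2 70.4% and 16, and Scn4b 66.0% and 23, against medians of 52.4% and 6 over 32851 promoters of this length. The GC box occurred 3 times before Hcn2 and 2 times before Hcn4, and 32.7% of all promoters held at least 1. Scn4b had 1 CCAAT box, found in 33.8% of all promoters, and Hcn4 had 1 T-box core, found in 11.8%. TATAAA, found in 12.4% of all promoters, and AGATAA, found in 9.99%, matched in none of the 3. The promoter of Scn10a, at 49.6% G and C with 8 CpG dinucleotides, held none of these 5 motifs. A match describes letters in this window and is no evidence of a bound factor.

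The arrays carried the signal of a ventricle. The 8 ventricular muscle genes chosen as markers, among them Myh6 and Myl2, averaged 12.29 to 12.31 on the knockout arrays and 12.26 to 12.30 on the wild-type arrays, on the log2 scale. The probe set of Cavin4, the gene for MURC, measured 5.38, 5.74 and 5.59 in MURC knockout samples and 8.75, 8.62 and 8.07 in wild-type samples, so every array followed its label. Knockout replicate 2 stood apart in the atrial genes Myl7 and Myl4. Its probe set of Myl7, the atrial regulatory myosin light chain, measured 7.22, against 3.61 to 4.11 on the other 5 arrays, and that of Myl4, the atrial essential light chain, measured 8.67, against 5.41 to 5.61. Nppa, at 11.44, and Sln, at 3.49, were also highest on this array, while Tbx5, at 6.84, and Bmp10, at 2.68, lay within the range of the others. Of 6 atrial markers 4 were tested, and their summed linear signal ranged from 1920 to 3450 in MURC knockout samples and from 1810 to 2410 in wild-type samples. Nppa dominates that sum. Wild-type replicate 1 was the brightest array, with a median of 4.71 over all probe sets against 4.60 to 4.65 on the others. The labels give more than 1 age within each group but do not say that every sample came from its own animal, so p-values measure the spread among the 3 arrays of each group, part of which may be technical. The number of arrays limits the precision.

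Hcn2, Scn4b and Hcn4 gave mid-range signals in the ventricle, and Scn10a lay in the lower part of the array. The percentile of a probe set among all 35556 on the same array was 77.5, 78.8 and 78.6 for Hcn2 in knockout replicates 1 to 3 and 77.4, 77.4 and 81.9 in wild-type replicates 1 to 3. Scn4b lay at percentiles 72.7, 74.7 and 72.2 in MURC knockout samples and 67.9, 70.8 and 78.2 in wild-type samples. Hcn4 lay at percentiles 65.7, 64.9 and 61.1 in MURC knockout samples and 63.5, 67.4 and 61.9 in wild-type samples. The order Hcn2, Scn4b, Hcn4, Scn10a was thus the same on all 6 arrays, but a percentile depends on the binding of the probes as well as on the transcript, so it does not order the transcripts. Scn10a lay at percentiles 38.3, 37.0 and 39.2 in MURC knockout samples and 41.3, 40.7 and 46.6 in wild-type samples, below the median of every array. The deposited table gives no detection call, so whether this signal exceeds background is not known. All 4 probe sets passed the filter of the test, a mean log2 signal at or above the 30th percentile, which stood at 3.45.

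**Figure D1:**
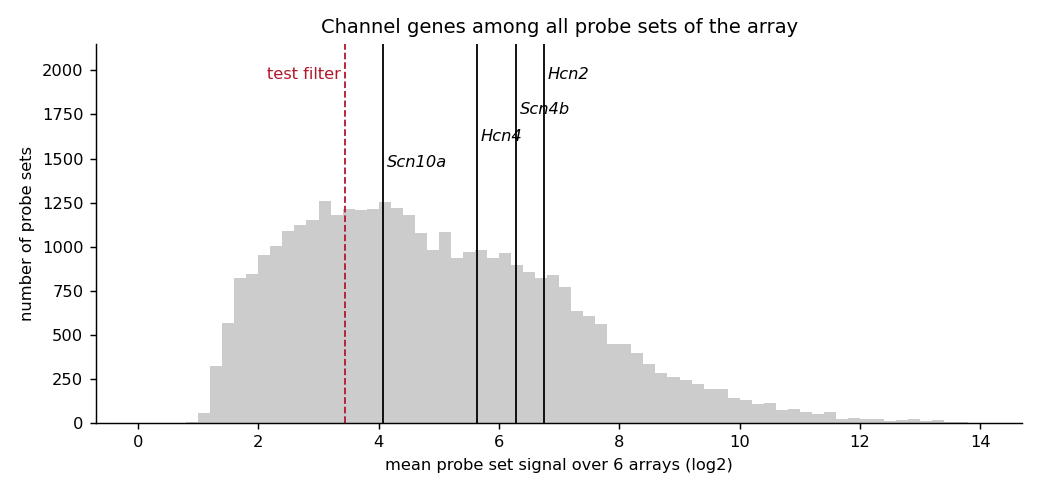
Histogram of the mean log2 signal over 6 arrays for all 35556 probe sets (vertical axis, number of probe sets per bin), with solid lines at the 4 channel genes and a dashed line at the filter of the test. Scn10a, at 4.07, lies closest to the filter at 3.45, and Hcn2, at 6.75, is farthest above it.

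The question of the genotype comparison was which transcripts differ when MURC is missing. None of the 4 channel genes differed between genotypes past the threshold. In limma, over 24898 probe sets, 0 of 4 had an adjusted p under 0.05 and 0 of 4 an unadjusted p under 0.05, where 0.00402% and 13.7% of all tested probe sets did. The 1 probe set past the adjusted threshold was that of Cavin4, the targeted gene (limma adjusted p = 0.012). Of the 4 channel genes only Scn10a had arrays that did not overlap between genotypes, lower in the knockout, which was true of 12.9% of all tested probe sets. With 1 of 4 the members' share rests on 1 probe set. Differences are knockout minus wild type on the log2 scale.

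Scn4b encodes the beta-4 subunit, which is disulfide-linked to the sodium channel pore and changes its gating. Its signal was 6.25, 6.42 and 6.20 on knockout arrays 1 to 3 and 5.97, 6.12 and 6.69 on wild-type arrays 1 to 3. The knockout arrays lay between the wild-type extremes, and wild-type replicates 1 and 3 were the lowest and the highest of all 6. The means were 6.29 ± 0.12 in MURC knockout samples and 6.26 ± 0.38 in wild-type samples (SD, n = 3 each), a difference of 0.03 with a 95% interval of -0.39 to 0.45 (limma adjusted p = 0.961). As a ratio this is 1.02-fold, with an interval of 0.762 to 1.37. The wild-type arrays spanned 0.72 and the knockout arrays 0.22, and 15.0% of tested probe sets had a larger range over the 6 arrays than Scn4b. Without wild-type replicate 3 the difference was 0.24 (interval -0.01 to 0.50, adjusted p = 0.387), and without wild-type replicate 1 it was -0.12. With age as a covariate it was -0.15 (adjusted p = 0.822), so its sign was not settled by these arrays.

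Scn10a, the alpha subunit Nav1.8 of sensory neurons, had the largest difference of the 4. Its signal was 3.90, 3.87 and 4.02 on the knockout arrays and 4.20, 4.04 and 4.42 on the wild-type arrays. Every knockout array was below every wild-type array, with a gap of 0.02 between knockout replicate 3 and wild-type replicate 2. The means were 3.93 ± 0.08 in MURC knockout samples and 4.22 ± 0.19 in wild-type samples (SD, n = 3 each), a difference of -0.29 (SE 0.13, interval -0.59 to 0.01, limma unadjusted p = 0.059, adjusted p = 0.385). The ratio was 0.818, with an interval of 0.662 to 1.01, and at so dim a signal background can compress it. The groups also did not overlap after quantile normalization or median centring, where the differences were -0.28 and -0.27. Without wild-type replicate 3 the difference was -0.19, and without wild-type replicate 2 it was -0.38. The unadjusted p was under 0.05 in 3 of 14 alternatives, at 0.036 among annotated probe sets, 0.0377 without an intensity trend and 0.0268 without wild-type replicate 2, while the adjusted p stayed between 0.279 and 0.585.

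Hcn2, the HCN isoform with the brightest probe set here, had nearly level values. Its signal was 6.64, 6.75 and 6.71 in MURC knockout samples and 6.71, 6.66 and 7.01 in wild-type samples. Wild-type replicate 3 stood above the other 5 arrays, which lay within 0.11 of each other. The means were 6.70 ± 0.06 in MURC knockout samples and 6.79 ± 0.19 in wild-type samples (SD, n = 3 each), a difference of -0.09 (interval -0.34 to 0.15, limma adjusted p = 0.763), or 0.937-fold with an interval of 0.792 to 1.11. Without wild-type replicate 3 the difference was 0.01 (interval -0.17 to 0.20). Over the 6 arrays Hcn2 had the narrowest range of the 4, 0.37, and 51.6% of tested probe sets had a larger one.

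Hcn4, the pacemaker channel of the sinoatrial node, measured 5.72, 5.68 and 5.41 in MURC knockout samples and 5.65, 5.87 and 5.45 in wild-type samples. The replicate labelled 3 was the lowest of its genotype in both groups, and the groups overlapped over most of their range. The means were 5.60 ± 0.17 in MURC knockout samples and 5.66 ± 0.21 in wild-type samples (SD, n = 3 each), a difference of -0.05 (interval -0.37 to 0.26, limma adjusted p = 0.905). The ratio was 0.964, with an interval of 0.774 to 1.20. Leaving out knockout replicate 3 gave a difference of 0.04, and leaving out wild-type replicate 2 gave 0.05. Knockout replicate 2, the array with the high Myl7 and Myl4 signals, lay within the wild-type range of Hcn4, and without it the difference was -0.09. Leaving out the same array gave -0.04 for Scn4b, -0.26 for Scn10a and -0.12 for Hcn2, and the part of atrial RNA in these signals was not tested.

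**Figure D2:**
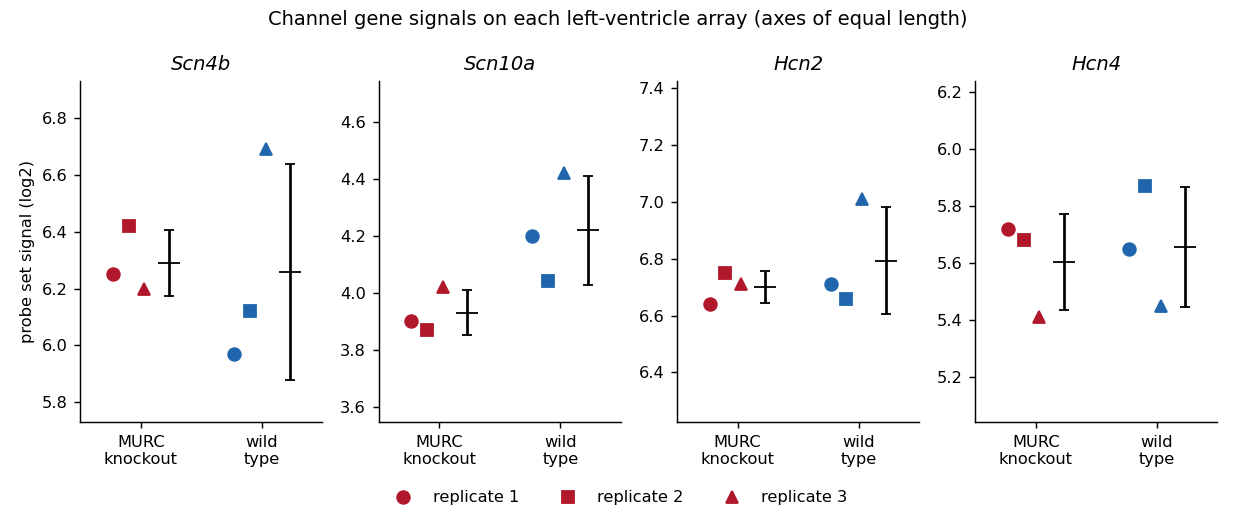
Log2 probe set signal of each channel gene on each array, MURC knockout in red and wild type in blue, with marker shapes for the replicates and the mean ± SD (n = 3) in black at the right of each group. All 4 vertical axes span the same length. Wild-type replicate 3 (blue triangle) is the highest of 6 arrays for Scn4b at 6.69, Scn10a at 4.42 and Hcn2 at 7.01, and is near the lowest for Hcn4 at 5.45.

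Wild-type replicate 3 was the array on which 3 of the 4 genes were highest. It was alone the highest array in 13.7% of all tested probe sets. It was the 1 sample labelled as 12 weeks old. The 6 leukocyte markers tested also averaged highest on it, at 6.71, against 6.19 to 6.41 in MURC knockout samples and 6.36 and 6.51 in the other wild-type arrays, and the 6 endothelial markers averaged lowest, at 8.47, against 8.60 to 8.68 in MURC knockout samples and 8.60 and 8.74 in the other wild-type arrays. As a group, 5 of the 6 leukocyte markers were lower in the knockout, against 59.0% of all tested probe sets. Their median difference was -0.20, against -0.04 over all tested probe sets. The macrophage gene C1qb, which encodes a chain of complement C1q, averaged 7.92 ± 0.09 in MURC knockout samples and 8.42 ± 0.24 in wild-type samples (SD, n = 3 each), without overlap, a difference of -0.51 (limma unadjusted p = 0.00348, adjusted p = 0.14). C1qb was the 1 of 6 leukocyte markers without overlap, against 19.0% of all tested probe sets. It was also the 1 with an unadjusted p under 0.05 in limma, against 13.7% of all tested probe sets. C1qa, also in this list, had a difference of -0.17, with overlap. The part of cell content in the channel signals was not tested. Leaving out this array moved Scn4b by more than its main difference, brought Hcn2 to 0.01 and moved Hcn4 to -0.16.

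**Figure D3:**
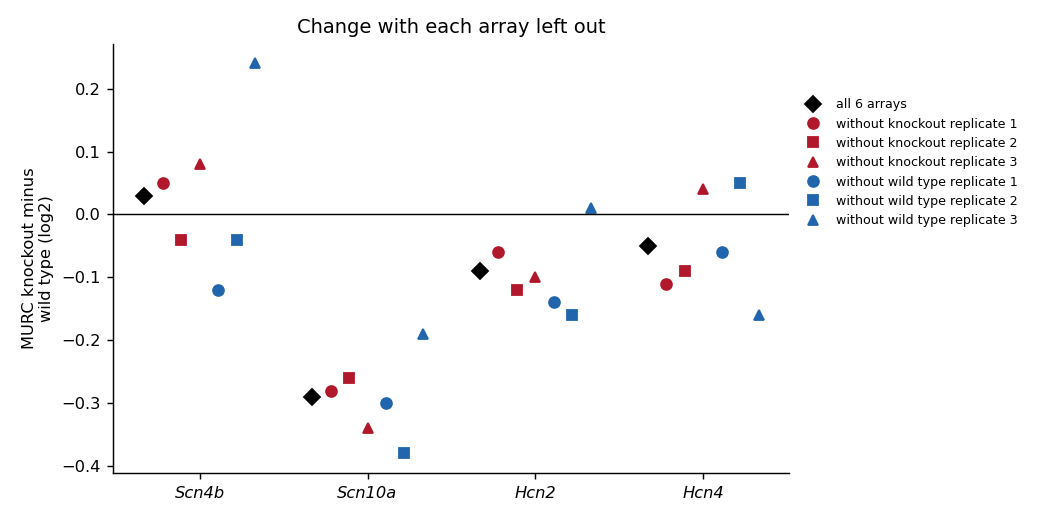
Difference in log2 signal, MURC knockout minus wild type, for each channel gene with all 6 arrays (black diamond) and with 1 array left out (red, a knockout array, and blue, a wild-type array, with shapes for the replicate). Scn10a stays below 0 throughout, from -0.38 to -0.19, while Scn4b runs from -0.12 to 0.24 and Hcn2 and Hcn4 also lie on both sides of 0.

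The genes were then compared with each other across arrays, in 6 pairs. Scn4b and Hcn2 had the closest profiles, with Pearson's r of 0.82 (exact permutation p = 0.106, adjusted p = 0.433) and Spearman's rho of 0.55 (exact permutation p = 0.272, adjusted p = 0.803) over 6 arrays. Without the 2 arrays farthest from the median of Scn4b, r was 0.69. Scn10a and Hcn2 had an r of 0.79 (exact permutation p = 0.172, adjusted p = 0.433) and a rho of 0.32 (p = 0.55, adjusted p = 0.803, exact permutation), and without the 2 arrays farthest from the median of Scn10a r was -0.28, so the relation rested on those arrays. Hcn4 ran the other way, with an r of -0.60 with Hcn2 and a rho of -0.61 (exact permutation p = 0.233 and 0.222, adjusted p = 0.433 and 0.803), and without 2 arrays r was -0.47. No pair passed after adjustment over the 6 pairs.

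Among 14204 other named genes, the profiles most like each channel gene were found by Pearson's r over the 6 arrays, as a description. For Scn4b these were Misp at 0.9914 and Iqsec2 at 0.9875, for Scn10a Faap100 at 0.9949 and Lgals9 at 0.99, for Hcn2 Klk1b24 at 0.9806 and Ngb at 0.9787, and for Hcn4 B3galt2 at 0.9935 and Tbcc at 0.986. Such values are common when so many genes are compared over so few arrays. An r of at least 0.9 was reached by 46 genes for Scn4b, 116 for Scn10a, 95 for Hcn2 and 94 for Hcn4. The gene with the profile closest to Scn4b, Misp, nearly shared its array order, with 4.22 on wild-type replicate 3 and 3.92 on wild-type replicate 1, but over a narrower range.

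The chromosomal neighbours give the values around each gene, by order in RefSeq's GRCm38.p6. Scn4b lies beside Scn2b, another beta subunit gene, whose probe set averaged 3.27 in MURC knockout samples and 3.33 in wild-type samples, under the filter. Scn10a lies beside Scn11a, and the probe set of Scn11a, a sodium channel of sensory neurons, averaged 2.66 in MURC knockout samples and 2.56 in wild-type samples, also under the filter. Its difference of 0.10 had the opposite sign to that of Scn10a. Hcn4 lies beside Neo1, a receptor gene, with 8.37, 8.53 and 8.23 in MURC knockout samples and 8.66, 8.58 and 8.54 in wild-type samples. Hcn2 lies beside Bsg, the gene for basigin, which averaged 10.95 in MURC knockout samples and 11.12 in wild-type samples. On the other side, the differences were -0.10 for Tmprss4 beside Scn4b, -0.27 for Rec114 beside Hcn4 and -0.02 for Polrmt beside Hcn2.

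Of 10 other sodium and HCN channel subunits with a named probe set 5 passed the filter, and none had an adjusted p under 0.05. Scn1a, Scn8a, Scn9a, Scn11a and the beta subunit gene Scn2b lay under the filter. Scn3a, a mostly neuronal and embryonic alpha subunit, measured 4.14, 4.33 and 3.81 in MURC knockout samples and 3.72, 3.54 and 3.54 in wild-type samples. Its groups did not overlap, with a difference of 0.49 (SE 0.16, limma unadjusted p = 0.0148, adjusted p = 0.243), at a dim signal. Scn7a, a sodium-sensing member of the family found in glia and other non-neuronal cells, measured 7.44, 7.50 and 7.50 in MURC knockout samples and 7.30, 7.31 and 7.12 in wild-type samples. These too did not overlap, with a difference of 0.24 (SE 0.07, limma unadjusted p = 0.0147, adjusted p = 0.243). Of the 3 alpha subunits tested, 2 were thus without overlap, against 19.0% of all tested probe sets. The same 2 had an unadjusted p under 0.05 in limma, against 13.7% of all tested probe sets. Over the alternatives the difference lay between 0.34 and 0.64 for Scn3a and between 0.18 and 0.29 for Scn7a, and no adjusted p was below 0.111 and 0.124.

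Scn2a, the brain alpha subunit, was represented by 14 probe sets, of which 8 were lower in MURC knockout samples and the brightest had a difference of -0.20 (limma adjusted p = 0.524), or -0.10 without wild-type replicate 1. Scn3b, a beta subunit gene, had a difference of -0.07, or 0.01 without knockout replicate 1. Hcn3, the remaining HCN gene with a named probe set, measured 4.10, 4.18 and 4.17 in MURC knockout samples and 4.27, 4.29 and 4.23 in wild-type samples. Its groups did not overlap, as in 19.0% of all tested probe sets, yet the difference was only -0.11 (interval -0.34 to 0.11, limma adjusted p = 0.674). All 3 measured HCN genes had differences below 0, between -0.11 and -0.05, against a median of -0.04 over all tested probe sets, and those of Hcn2 and Hcn4 were above 0 with some arrays left out.

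Markers of other cells that could carry these channels were read beside them, and none had an adjusted p under 0.05 in limma. Of 10 neuron markers 9 had a named probe set and 4 passed the filter, with 2 higher and 2 lower in the knockout. Their mean lay between 4.62 and 4.79 in MURC knockout samples and between 4.61 and 4.84 in wild-type samples, and their summed linear signal between 104 and 117 in MURC knockout samples and between 107 and 123 in wild-type samples. Of 10 sinoatrial and conduction markers 6 passed, 3 higher and 3 lower, with means of 5.52 to 5.62 in MURC knockout samples and 5.47 to 5.67 in wild-type samples and summed linear signals of 406 to 419 in MURC knockout samples and 389 to 433 in wild-type samples. The nodal transcription factor genes Shox2 and Isl1 lay under the filter, with Shox2 at 3.13 in MURC knockout samples and 2.86 in wild-type samples. The 6 Schwann cell and glia markers, which include Scn7a, had means of 4.62 to 4.75 in MURC knockout samples and 4.62 to 4.76 in wild-type samples. Of these markers 4 were lower and 2 higher in the knockout, against 59.0% lower over all tested probe sets. Their summed linear signal ranged from 268 to 275 in MURC knockout samples and from 237 to 260 in wild-type samples, without overlap, a sum that Scn7a dominates. The groups did not overlap in 3 of the 6 glia markers, against 19.0% of all tested probe sets. These were Scn7a, Kcna1 and Mbp, the last with a difference of only -0.09. In limma 2 of the 6 had an unadjusted p under 0.05, against 13.7% of all tested probe sets. They were Scn7a and, lower, the potassium channel gene Kcna1, with a difference of -0.33 (limma unadjusted p = 0.0164, adjusted p = 0.25). The part of these cells in the channel signals was not tested.

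Genes for proteins that bind, anchor or modify sodium channels were more often lower than higher in the knockout, and none passed the threshold. Of 15 in the list 13 were tested, 11 lower and 2 higher, with a median difference of -0.09, against 59.0% lower and a median of -0.04 over all tested probe sets. After quantile normalization 10 were lower and 3 higher, with a median of -0.05 against -0.01, and without knockout replicate 3 the median was -0.05 against -0.04. The groups did not overlap in 3 of them, against 19.0% of all tested probe sets. Gja1, the gap junction protein connexin 43, measured 9.66, 9.80 and 9.66 in MURC knockout samples and 10.03, 9.98 and 9.83 in wild-type samples, a difference of -0.24 (limma adjusted p = 0.227). Pkp2, a desmosomal protein of the intercalated disc, measured 9.27, 9.24 and 9.20 in MURC knockout samples and 9.51, 9.47 and 9.31 in wild-type samples, a difference of -0.19 (limma adjusted p = 0.282). Fgf11, a gene of the intracellular FGF family, and Ywhah, a 14-3-3 protein gene, had differences of -0.20 and -0.10, which over the alternatives lay between -0.27 and -0.14 for Fgf11 and between -0.15 and -0.06 for Ywhah. Fgf13, the intracellular FGF that binds cardiac sodium channels in mouse, had one of -0.11, and Gpd1l, Camk2d, Ank2 and Ank3 lay between -0.09 and -0.02. The 2 higher genes were Rangrf, with a difference of 0.10, and Dlg1, with one of 0.06, both with overlap.

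Of the 7 genes for proteins reported to partner HCN channels 5 were tested, 3 lower and 2 higher, against 59.0% lower over all tested probe sets. Their median was -0.03, against -0.04 over all tested probe sets. Without wild-type replicate 3 there were 2 lower and 3 higher, with a median of 0.02. Cav3, the muscle caveolin, measured 7.32, 7.33 and 7.17 in MURC knockout samples and 7.63, 7.61 and 7.43 in wild-type samples, a difference of -0.28 (limma adjusted p = 0.213), without overlap. Flna, the actin crosslinker filamin A, had a difference of 0.09, Mrvi1 one of -0.09 and Pex5l, the HCN trafficking protein, one of 0.06, all with overlap. Over the alternatives Flna lay between 0.02 and 0.18, Mrvi1 between -0.13 and -0.04 and Pex5l between -0.06 and 0.18. Kcne2, a beta subunit gene, lay under the filter.

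Of 12 transcription factor genes of the conduction system 10 were tested, 7 lower, 2 higher and 1 level, against 59.0% lower over all tested probe sets. Their median was -0.14, against -0.04 over all tested probe sets. After quantile normalization 7 were lower and 3 higher, with a median of -0.11 against -0.01. Without wild-type replicate 1, the brightest array, 6 were lower and 4 higher, with a median of -0.02 against -0.01, so the size of the median depended on that array. The mean of the 10 genes lay between 6.18 and 6.27 in MURC knockout samples and between 6.29 and 6.40 in wild-type samples, without overlap. Their summed linear signal, 876 to 912 in MURC knockout samples and 974 to 1000 in wild-type samples, did not overlap either. Nkx2-5, a core cardiac factor that is also needed in the conduction system, measured 7.36, 7.45 and 7.23 in MURC knockout samples and 7.60, 7.45 and 7.66 in wild-type samples, a difference of -0.22 (limma adjusted p = 0.325). Knockout replicate 2 and wild-type replicate 2 had the same value. Irx3, a factor of the ventricular conduction system, had a difference of -0.29, which was -0.45 without wild-type replicate 3 (limma adjusted p = 0.175) and -0.21 without wild-type replicate 1. Tbx5 had one of -0.21, which was -0.32 without wild-type replicate 1 and -0.11 without wild-type replicate 3, and Foxo1 one of -0.15. Foxo1 was the 1 of 10 tested genes of this list without overlap, against 19.0% of all tested probe sets. Tbx3, a repressor that marks the node, had one of 0.04.

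Over the 6 companion lists, 33 of 47 genes were tested, and 24 were lower, 8 higher and 1 level, against 59.0% lower over all tested probe sets. None passed the adjusted threshold in limma, and 6 had an unadjusted p under 0.05, 4 of them lower, against 13.7% of all tested probe sets. In the alternatives that tested all 33, the count of lower genes lay between 22, without wild-type replicate 1, and 26, without wild-type replicate 2. With the stricter filter it was 21 of 28.

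**Figure D4:**
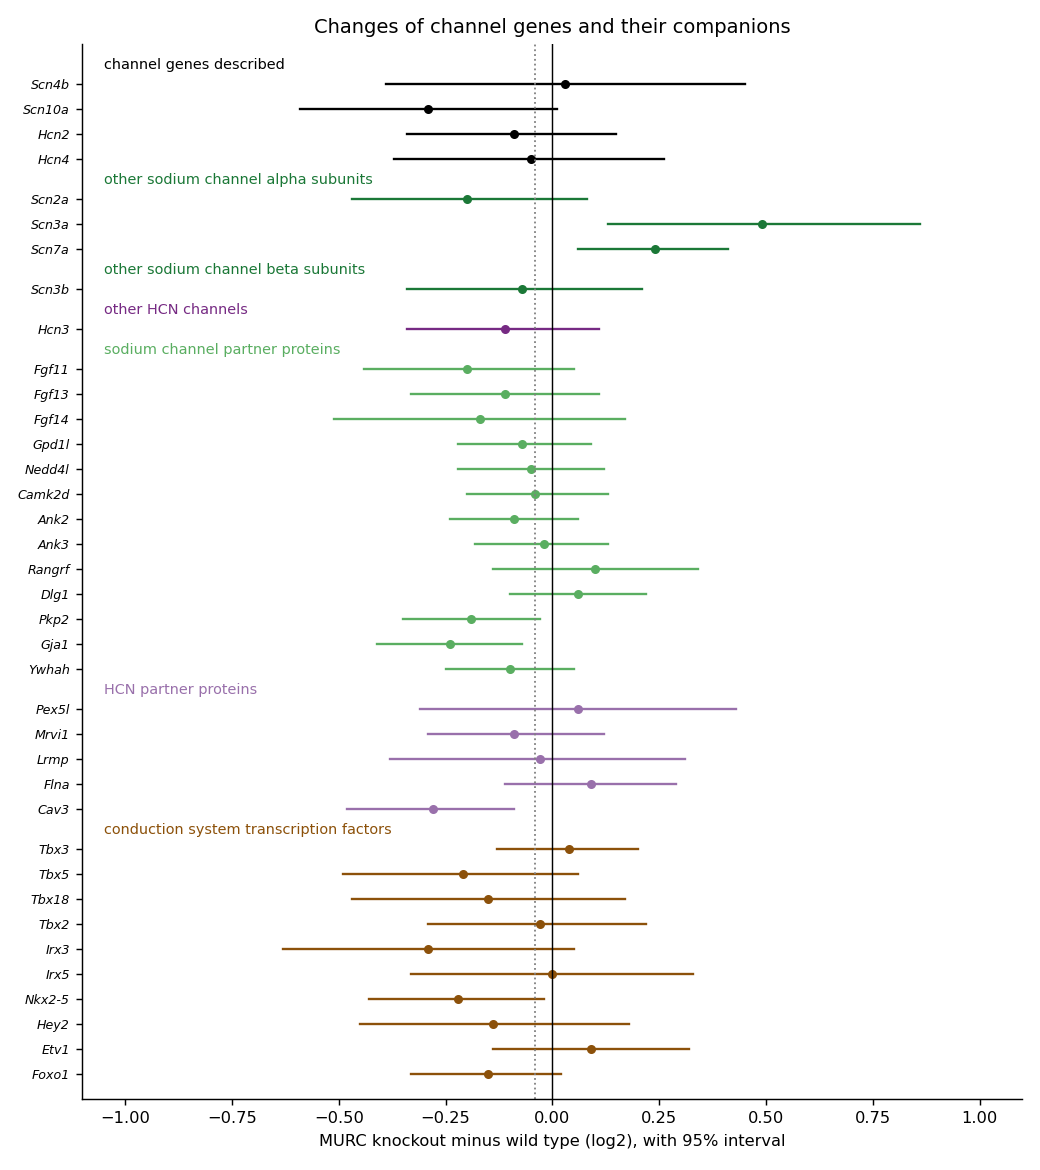
Difference in log2 signal, MURC knockout minus wild type, for the 4 channel genes (black) and the 33 tested genes of the companion lists (coloured by list), as points with 95% intervals from limma. The solid line marks 0 and the dotted line the median of all tested probe sets, -0.04. All 4 intervals of the channel genes include 0, and those of Scn3a and Scn7a lie above it.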

How the data were processed

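The deposited data were a single table of the authors' log2 values, 35556 probe sets by 6 arrays. MAS5 is named in the submitters' processing notes, with no role or version. How probes were summarized, background-corrected and scaled, and the array's genome build, are not given in these sources. The log2 unit was settled from the values, 0.46 to 13.72, and column medians lay between 4.60 and 4.71. Symbols from the platform annotation were updated by gene identifier through RefSeq (GRCm38.p6), which matched 21698 of 21789 probe sets with 1 symbol.

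The deposited values were fitted in R 4.3.3 with limma 3.58.1 (intensity trend, two-sided, 3 arrays per genotype, no covariate) over 24898 probe sets at or above the 30th percentile of the mean, with Benjamini-Hochberg adjustment and a threshold of 0.05. The fit was tested on simulated data in which every added change was larger than the differences of the channel genes. Recovery of changes as small as theirs was not tested. The brightest probe set stood for a gene. Named genes are the members, Cavin4, up to 4 genes of each companion list with the smallest p, the 2 closest profiles per member (without predicted genes, small RNAs and chemosensory receptors), and markers. Neighbours and the list genes named without a test were added for context. Members and lists were chosen with earlier results of these data known. Alternatives covered normalization, filter, probe sets, variance model, age, array weights, replicate block and each array left out. Replicate numbers gave no sign of pairing. Deviations of same-numbered arrays correlated at -0.0595, 0.0213 and -0.0568, and those of differently numbered arrays between -0.0141 and 0.0731. With 3 arrays per genotype these values cannot settle whether the samples were paired.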

Additional observations from a re-analysis of the deposited data

How the results depend on the processing

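No channel gene had an adjusted p under 0.05 in limma under any alternative run, and none of the companion genes did. With arrays left out in turn, the difference ranged from -0.12 to 0.24 for Scn4b, from -0.38 to -0.19 for Scn10a, from -0.16 to 0.01 for Hcn2 and from -0.16 to 0.05 for Hcn4. With age as a covariate Scn4b measured -0.15, the only sign change outside the arrays left out, and the cause was not tested. Scn10a was removed by the stricter filter. Ranked among annotated probe sets, the mean percentiles were 67.2 for Scn4b, 33.4 for Scn10a, 74.3 for Hcn2 and 57.1 for Hcn4, against 72.8, 40.5, 78.6 and 64.1 among all. Each channel gene had 1 probe set, so averaging a gene's probe sets was not a separate setting for it, and it was not run for the companion genes.

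The count of all probe sets past the threshold, 1 in the main test, was 130 after quantile normalization, 105 after median centring, 48 with the stricter filter, 361 among annotated probe sets, 34 with age and 126 with array weights, and from 0 to 11 with arrays left out. With the replicate block it was 0, with 3257 at an unadjusted p under 0.05 against 3417 in the main test, and the difference of Scn10a was again -0.29 (adjusted p = 0.408). The replicate numbers gave no sign of pairing, and the block changed no adjusted call of a channel or companion gene. Unadjusted p-values in limma moved across 0.05 for Nkx2-5, from 0.0353 to 0.0701, and for Irx3, from 0.0821 to 0.039.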
